A study of Rattus norvegicus with 21 samples.

Results

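Halogen light at level 1000 was compared with blue and LED light at the same level, in the retinas of rats. The 3 libraries of the group labelled Hal1000 were set against the 6 libraries of Blue1000 and LED1000, taken as the mean of the 2 group means, over all genes. These 9 libraries were part of 21 in the series, and 16006 of the 19099 genes in the table held enough counts to be tested.

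All animals were Sprague Dawley rats, an albino strain, with an age of 8 months in the labels, and retinal RNA was sequenced after an exposure of 6 months. The Blue1000, LED1000 and Hal1000 groups differed in the light source alone, as far as the labels state, and each had 3 libraries. The same 3 sources at level 200 and a control group, also with 3 libraries each, served as reference and helped to estimate the spread. The labels give neither the unit of the levels nor the spectra, the hours of light per day, the hour of collection or the light of the control animals, and the group called LED is matched to the white light of the study's description by elimination. Nothing in the labels says whether the 3 samples of a group were 3 animals. The p-values therefore cover the spread among these samples, part of which may be technical.

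Long exposure to bright light is known to kill photoreceptors in the albino rat retina, rods before cones. The inner neurons outlast the photoreceptors, while Müller glia become reactive and microglia, the resident immune cells, multiply and take up debris. Halogen lamps emit a broad spectrum weighted to long wavelengths, blue sources a narrow band of short wavelengths, and white LEDs usually combine a short-wavelength peak with a broad phosphor band, so the comparison asks whether the source still left a mark on the retina once the rods were gone.

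Rods were depleted in every level 1000 group. Genes of the rod list took 0.144% ± 0.00808 of the counts under halogen, 0.133% ± 0.0155 under blue and 0.147% ± 0.005 under LED light (SD, n = 3 each), against 5.36% ± 0.316 in the controls. In bulk tissue, fewer cells of a type and less RNA per cell cannot be told apart. The 9 libraries held 31433210 to 34008272 counts each. One library in each group stood between its mates: among genes with a mean of at least 20 counts whose other 2 libraries differed by more than 2-fold, Blue1000 replicate 3 lay between them for 86.8%, Hal1000 replicate 3 for 83.2% and LED1000 replicate 2 for 84.4%, compared with 41.4 to 73.1% for the other 18 libraries. The origin of these 3 in-between libraries was not tested, and the main counts of calls below are given with and without them.

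Few genes separated halogen from the other sources. In edgeR's quasi-likelihood test with Benjamini-Hochberg adjustment over all genes, 2 of 16006 genes passed the threshold of 0.05 (0.0125%), both higher under halogen, RGD1563400 and Dio2. At an unadjusted p under 0.05 there were 813 genes (5.08%), 438 higher (2.74%) and 375 lower (2.34%). The 3 halogen libraries did not overlap the 6 others for 807 genes (5.04%), 422 higher (2.64%) and 385 lower (2.41%), and for 233 of them (1.46%) the difference also exceeded 1.5-fold. Without the in-between libraries edgeR called 0 genes, with 397 at an unadjusted p under 0.05.

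The data bounded most differences rather than leaving them unmeasured. The median size of the log2 difference was 0.09, with a median standard error of 0.12. The 95% interval lay within 2-fold in either direction for 12927 genes (80.8%), and for 10407 of the 10641 genes whose mean reached 10 CPM (97.8%), where CPM are counts scaled to a common library size. For the abundant genes, differences above 2-fold were thus outside the intervals in nearly every case, while for rare transcripts larger differences remained possible.

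Distances between libraries showed the same scale. Over 14101 genes with at least 1 CPM, the median root mean square log2 difference between a halogen and a blue library was 0.439 (range 0.402 to 0.479) and between a halogen and an LED library 0.422 (0.36 to 0.552). Libraries of 1 group differed from each other by medians of 0.305 for halogen, 0.371 for blue and 0.359 for LED light, so distances between sources were only a little above those within a group and their ranges overlapped. Blue and LED libraries were no closer to each other, with a median of 0.45. From the controls, the level 1000 groups differed by medians of 1.08 to 1.1.

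**Figure D1:**
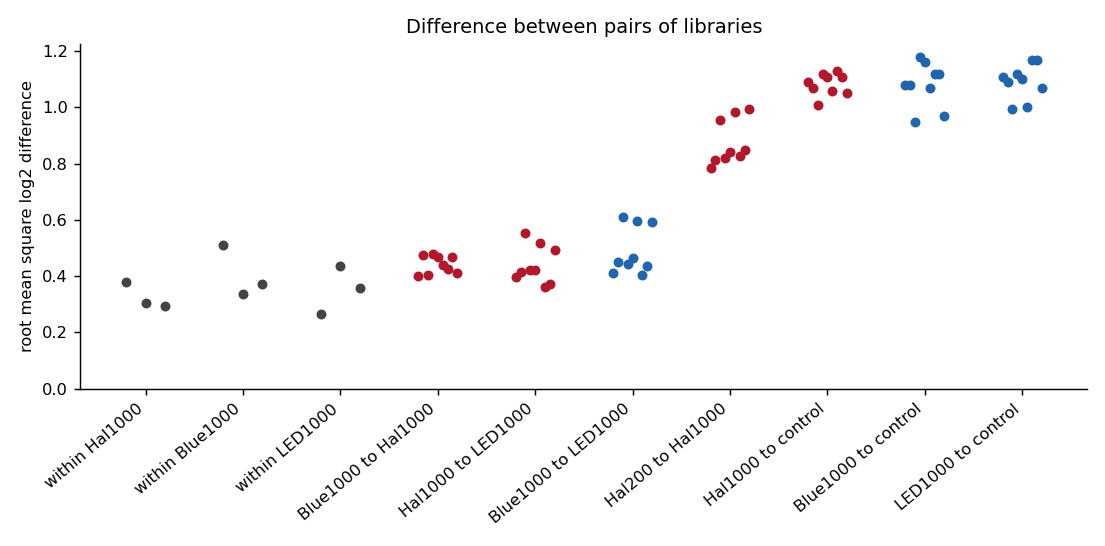
Root mean square log2 difference between pairs of libraries (y axis) for pairs within a level 1000 group, between the level 1000 groups, and between these and other groups (x axis); each point is 1 pair. Pairs between sources at level 1000 lie near the pairs within a group, and pairs with a control library lie highest.

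The number of calls differed between the fits, and the cause was not tested. The fit that pooled the spread of all 21 libraries gave the 2 calls above, a fit of the 9 compared libraries alone gave 152 (0.979% of 15519 genes tested, 40 higher), DESeq2 gave 29 (0.181%, 15 higher) and limma voom with quality weights gave 591 (3.69%, 358 higher). The quality weights of the in-between libraries were 2.86, 2.65 and 5.77, against 0.284 to 1.21 in the other 6. The fit of the compared groups alone called 2 genes once the in-between libraries were left out. DESeq2 and the fit of the compared groups shared 20 calls, which were 69% of the former and 13.2% of the latter, and 20 genes were called by DESeq2, voom and the fit of the compared groups alike.

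RGD1563400 is a gene without a descriptive name in the table, annotated there as a membrane protein. Its level was 2.25, 2.51 and 2.59 CPM in the halogen libraries, 1.07, 1.2 and 0.982 CPM in the blue libraries and 0 in all 3 LED libraries. The blue libraries held 35, 40 and 32 reads and the halogen libraries 77, 83 and 91, so the 3 groups were separated in every library. The mean under halogen was at least 28-fold higher than under LED light, taken against a floor of 3 counts per library, which corresponds to 0.0875 CPM and covers counting error only. Its adjusted p in edgeR's quasi-likelihood test was 0.00348, and the gene was called in 16 of 20 alternatives but not without the in-between libraries (adjusted p = 0.255). The 3 LED libraries at level 200 held 0.799, 2.53 and 0.814 CPM and the controls 0.148, 0.337 and 0.405 CPM, so the absence of reads was found in the LED1000 group and not in the LED200 group.

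Dio2 encodes the type 2 deiodinase, which turns the prohormone thyroxine into active thyroid hormone within cells. Its level was 41.2, 38 and 41.2 CPM under halogen, 15.9, 11.5 and 14.6 CPM under blue and 30.4, 30.8 and 31.1 CPM under LED light. The halogen libraries were above all others, the blue libraries lay in the range of the controls (11 to 15 CPM) or just above it, and the LED libraries lay in between. The log2 fold change was 0.95 ± 0.14 (SE; 95% interval 0.65 to 1.26), with an adjusted p of 0.0219 in edgeR's quasi-likelihood test. The call was made in 7 of 20 alternatives: it was lost in 8 of the 9 fits that left out 1 library, without the in-between libraries (adjusted p = 1, and 0.124 when the compared groups were fitted alone), with the replicate number as a block (0.0843) and on FPKM with pseudocounts of 1 and 0.1 (0.0803 and 0.101), although the log2 fold change stayed between 0.75 and 1. Against blue alone the difference was larger, at 1.52 ± 0.18 (adjusted p = 0.000443), and against LED light it was 0.38 ± 0.17 (adjusted p = 0.478).

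The rest of the thyroid hormone genes, a list drawn up after these values were seen, contained no other call. Of 19 genes tested, 1 had an unadjusted p under 0.05, Dio2 itself, and the median log2 fold change was 0.03, beside 0.01 over all genes tested. Dio1, the type 1 deiodinase, was at 70.2, 59.9 and 64.5 CPM under halogen and at 80.1 to 115 CPM in the 6 other libraries, a log2 difference of -0.60 ± 0.34 (95% interval -1.33 to 0.13) that did not pass the test although the groups did not overlap. For Dio3, which inactivates thyroid hormone, the groups overlapped and the log2 difference was -0.85 ± 0.65.

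The other 8 of the 10 genes with the smallest p did not pass the adjustment in the combined comparison. Cyp2j10, a cytochrome P450 of the family that oxidises arachidonic acid, was at 11, 4.99 and 8.78 CPM under halogen and at 3.25 to 4.67 CPM in the other libraries (log2 difference 1.07 ± 0.20, adjusted p = 0.165). Pip5kl1, a phosphoinositide kinase-like protein, was at 22.7, 18.2 and 17.6 CPM against 11.6 to 15.9 CPM (0.52 ± 0.11, adjusted p = 0.326). In these the halogen libraries stood above all 6 others, but spread more widely among themselves. Ccdc30, a coiled-coil protein, was the only one of the 10 with a lower level: 14.2, 14.3 and 14.6 CPM under halogen against 22 to 27.2 CPM, which is a log2 difference of -0.78 ± 0.16 (adjusted p = 0.309). Its halogen libraries were tightly grouped and below every other level 1000 library. Vax2, a homeobox factor that patterns the ventral retina, was at 36.3, 39.9 and 37.9 CPM under halogen, at 31.2, 22.6 and 30 CPM under blue and at 13, 13.5 and 17.9 CPM under LED light, a graded order whose neighbours did not overlap.

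**Figure D2:**
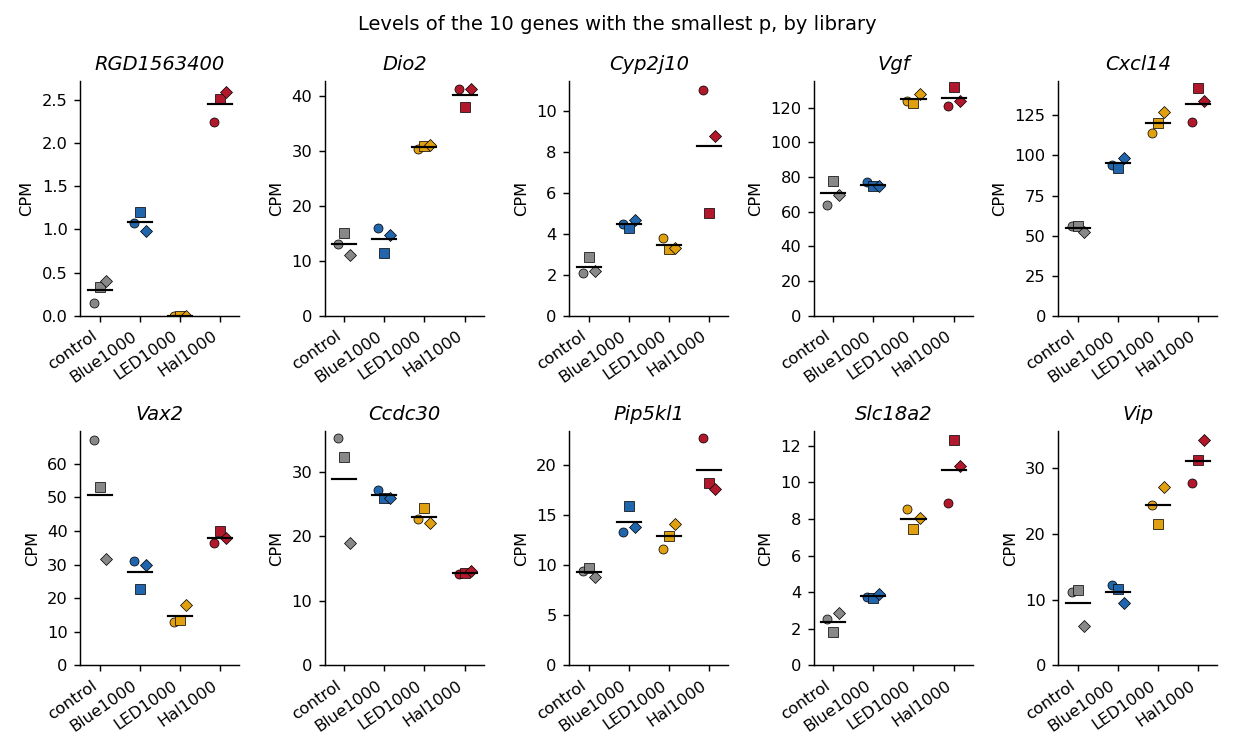
Level in CPM (y axis) of the 10 genes with the smallest p in the combined comparison, for the controls and the 3 level 1000 groups (x axis); points are libraries (circle, square and diamond for replicates 1, 2 and 3) and bars are group means. RGD1563400 is at 0 in LED1000, and Dio2, Vgf, Slc18a2 and Vip are low in Blue1000.

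Set against blue alone, halogen differed in a handful of genes. edgeR's quasi-likelihood test called 5 of 16006 genes (0.0312%), all higher under halogen: Dio2, Vgf, Cxcl14, Slc18a2 and Vip. Vgf encodes a precursor of secreted neuropeptides, and was at 121, 132 and 124 CPM under halogen and at 77.2, 74.8 and 74.7 CPM under blue (log2 fold change 0.74 ± 0.08, adjusted p = 0.000443). Slc18a2, the vesicular monoamine transporter that loads dopamine into synaptic vesicles, was at 8.88, 12.3 and 10.9 CPM against 3.72, 3.69 and 3.93 CPM (1.5 ± 0.25, adjusted p = 0.0317). Vip, the vasoactive intestinal peptide of a class of amacrine cells, was at 27.7, 31.1 and 34.2 CPM against 12.2, 11.6 and 9.48 CPM (1.48 ± 0.24, adjusted p = 0.0317). For these 3 genes, as for Dio2, the halogen and blue libraries were far apart and the blue libraries lay nearer to the controls than the halogen libraries did. Cxcl14, a chemokine, showed a smaller rise, from 94.2, 92.5 and 98.4 CPM under blue to 121, 142 and 134 CPM (0.48 ± 0.07, adjusted p = 0.00884).

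Under LED light these genes were closer to their levels under halogen than under blue. Vgf was at 124, 123 and 128 CPM in the LED libraries, overlapping the halogen libraries, with a log2 difference of 0.01 ± 0.08. Slc18a2 was at 8.54, 7.48 and 8.06 CPM and Vip at 24.4, 21.4 and 27.1 CPM, both just below every halogen library. The halogen against LED differences of 0.41 ± 0.25 for Slc18a2 and 0.35 ± 0.24 for Vip did not pass the test, which does not show that the levels were alike. In the direct comparison of blue with LED light, Vgf and Dio2 were lower under blue (log2 fold changes -0.73 and -1.14, adjusted p = 0.000848 and 0.0126), and so was Cxcl14 (-0.34, adjusted p = 0.0476), while Slc18a2 and Vip missed the threshold (adjusted p = 0.0637 and 0.0532).

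For Vgf, Dio2 and Slc18a2 the order of the groups was not the same at the lower level. Rod genes there took 3.55% of the counts under halogen, 0.145% under blue and 0.219% under LED light. CPM is relative to all counts, so the rod share moves these genes too, and its part was not tested. At level 200, Vgf was at 125, 104 and 106 CPM under blue, 75.7, 86.3 and 70.3 CPM under halogen and 81.9, 80 and 79.6 CPM under LED light, so blue was there the highest source. Dio2 at level 200 was at 27.3, 27.7 and 43.1 CPM under blue and at 17.3, 17.4 and 11.6 CPM under LED light, again the reverse of level 1000. Slc18a2 was at 7.42, 9.02 and 5.1 CPM under blue and at 1.58, 1.5 and 1.39 CPM under halogen at level 200. The difference between the halogen contrasts at the 2 levels passed edgeR's interaction test for Vgf (0.67 ± 0.10, adjusted p = 8.35e-05), Dio2 (1.23 ± 0.21, adjusted p = 0.000275), Slc18a2 (2.65 ± 0.32, adjusted p = 4.93e-06), Vip (1.63 ± 0.30, adjusted p = 0.000481) and Cxcl14 (0.89 ± 0.09, adjusted p = 4.4e-07).

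The promoters of 4 of the 5 genes named against blue are shown, because all 5 were low in the blue libraries and 2 of them carry the cyclic AMP response element, the sequence TGACGTCA bound by CREB. The window of Cxcl14, the gene left out, held neither the element nor its TGACG core. The sequences are the 250 bases before the gene start in RefSeq's annotation of GRCr8, 5′ to 3′ on the gene's strand, and capitals mark the full element or, in Vip, the core; the Slc18a2 window holds a further core that is left in lower case. They are chr12:25277021-25277270 (minus strand) for Vgf, chr1:268399771-268400020 (plus) for Slc18a2, chr1:44470230-44470479 (plus) for Vip and chr6:115410595-115410844 (minus) for Dio2.
Vgf: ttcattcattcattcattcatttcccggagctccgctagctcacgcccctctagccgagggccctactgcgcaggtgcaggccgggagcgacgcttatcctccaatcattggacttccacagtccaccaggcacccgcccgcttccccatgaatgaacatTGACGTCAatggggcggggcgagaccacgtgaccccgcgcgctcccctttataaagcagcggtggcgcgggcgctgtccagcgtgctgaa
Slc18a2: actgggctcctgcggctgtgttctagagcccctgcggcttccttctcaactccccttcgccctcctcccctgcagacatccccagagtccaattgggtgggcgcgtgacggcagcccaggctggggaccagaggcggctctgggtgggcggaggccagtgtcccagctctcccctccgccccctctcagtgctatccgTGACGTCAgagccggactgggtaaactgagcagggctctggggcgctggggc
Vip: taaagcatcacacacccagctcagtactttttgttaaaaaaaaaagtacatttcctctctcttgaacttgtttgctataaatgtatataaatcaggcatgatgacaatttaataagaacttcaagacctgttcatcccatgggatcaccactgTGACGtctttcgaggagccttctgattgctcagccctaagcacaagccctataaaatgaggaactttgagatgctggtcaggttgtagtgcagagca
Dio2: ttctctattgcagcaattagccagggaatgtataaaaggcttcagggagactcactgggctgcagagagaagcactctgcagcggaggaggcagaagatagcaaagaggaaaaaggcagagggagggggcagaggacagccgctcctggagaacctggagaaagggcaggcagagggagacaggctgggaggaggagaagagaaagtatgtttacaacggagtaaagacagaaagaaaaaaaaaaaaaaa

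The element, which reads the same on both strands, lay 90 bases before the gene start of Vgf and 52 bases before that of Slc18a2. The Vip window held the core, 97 bases before the start, and the Dio2 window held neither. The search covered all 10 genes with the smallest p, for a motif chosen after values were seen. Of these 10 genes, 2 held the full element, Vgf and Slc18a2. A core was held by 4 in at least 1 window, these 2 together with Vip and Ccdc30. Over all 17542 promoters of the same length, 2.19% held the full element and 22.8% the core on either strand, where every full element is also counted as a core. These shares count windows, whereas the 10 genes were counted once each and some, such as Ccdc30, had several windows. The shares are thus not on the same unit. 15211 of the 19099 genes in the table matched a promoter. A match describes the sequence and was not tested as a site of binding.

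The wider lists of these transmitters held differences of both signs. Of 20 tested members of a retinal neuropeptide list drawn up after values were seen, 4 had an unadjusted p under 0.05 and a higher level and 3 a lower level. Over all genes tested these shares were 2.74 and 2.34%. The median log2 difference of the list was 0.09. Crh, corticotropin-releasing hormone, was at 4.88, 4.32 and 4.72 CPM under halogen, 0.702, 1.77 and 1.5 CPM under blue and 3.3, 4.51 and 3.31 CPM under LED light, so blue was again low and halogen overlapped LED light. Npy, neuropeptide Y, had the opposite sign, at 6.42, 4.6 and 5.14 CPM against 7.26 to 28.4 CPM in the other libraries (-1.33 ± 0.53), and Adcyap1, the peptide PACAP, was at 19.3, 19.8 and 20.9 CPM against 20.8 to 45.9 CPM (-0.50 ± 0.17). None of these 3 passed the adjustment. Of 13 dopamine genes, 1 had an unadjusted p under 0.05, Slc18a2, and Th, the rate-limiting enzyme of dopamine synthesis, was at 27.3, 25.5 and 26.8 CPM under halogen against 13.1 to 32.9 CPM (0.11 ± 0.17).

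Set against LED light alone, halogen gave 4 calls in edgeR's quasi-likelihood test (0.025%), 2 in each direction (0.0125%). RGD1563400 and Vax2 were higher (Vax2 log2 fold change 1.36 ± 0.21, adjusted p = 0.0242). Asmt, the last enzyme of melatonin synthesis, was at 8.06, 8.4 and 8.78 CPM under halogen, 9.91, 9.88 and 8.32 CPM under blue and 14.5, 16.7 and 17.6 CPM under LED light (-0.95 ± 0.15 against LED light, adjusted p = 0.0242). Calb1, the calcium-binding protein calbindin of horizontal and other inner retinal cells, was at 26.3, 29 and 33.5 CPM under halogen, 45.3, 28.7 and 32.4 CPM under blue and 58.1, 64.2 and 65.2 CPM under LED light (-1.08 ± 0.17, adjusted p = 0.0267). For both genes the halogen and blue libraries overlapped and the LED libraries stood apart. Without the in-between libraries edgeR called 0 genes against blue and 0 against LED light, with 455 and 839 genes at an unadjusted p under 0.05. Blue and LED light differed from each other in 42 genes (0.262%), 13 higher (0.0812%) and 29 lower (0.181%) under blue. That count was 0 without the in-between libraries (2030 at an unadjusted p under 0.05), 2 or 3 without any 1 of Blue1000 replicates 2 and 3 or LED1000 replicates 2 and 3, 25 without Blue1000 replicate 1 and 1364 without LED1000 replicate 1.

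No gene list held a call in the combined comparison apart from the one drawn up around Dio2. Microglial genes leaned to higher levels under halogen. Of 29 tested members of the microglia and macrophage list, 24 had a positive log2 difference, 4 had an unadjusted p under 0.05, all higher (2.74% of all genes tested), and 8 did not overlap, all higher (2.64% of all genes); the median was 0.29, beside 0.01 over all genes tested. The list took 0.0642% ± 0.000551 of the counts under halogen, 0.0561% ± 0.00155 under blue and 0.0533% ± 0.00537 under LED light (SD, n = 3). Its median without the in-between libraries was 0.28. At level 200 the median of the list had the opposite sign, at -0.21, and the median interaction with the light level was 0.55. That interaction was called for 0 members of the list by edgeR, which does not show that the levels were alike.

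Tmem119, a marker of resident microglia, was at 8.64, 8.28 and 9.18 CPM under halogen, 5.52, 7.26 and 5.99 CPM under blue and 3.89, 2.85 and 4.16 CPM under LED light (log2 difference 0.87 ± 0.20, adjusted p = 0.421). Csf1r, the receptor on which microglia depend for survival, was at 82.7, 89.9 and 84.5 CPM against 53.1 to 70 CPM (0.49 ± 0.19). P2ry12, the purinergic receptor of microglia at rest, was at 9.32, 7.77 and 7.93 CPM against 5.25 to 6.95 CPM (0.51 ± 0.23). In each of these the halogen libraries were above all 6 others, and all of the 9 libraries exceeded the controls. Trem2, a receptor of phagocytic microglia, overlapped, with 2.48, 2.24 and 3.55 CPM against 2.21 to 4.69 CPM (-0.23 ± 0.32). The groups also overlapped for Aif1, the microglial gene of the fixed set. It held 159, 195 and 192 reads under halogen, 174, 153 and 152 under blue and 100, 164 and 185 under LED light. Cd14 had the lowest log2 difference of the list, at -0.68.

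Of the antigen presentation genes, 2 of class II are described first: Cd74, from the fixed set, and RT1-Da, chosen after its values were seen. Cd74, the invariant chain that accompanies class II molecules, was at 85.1, 56 and 71 CPM under halogen, 24.8, 20 and 18.5 CPM under blue and 22.4, 26.6 and 26.9 CPM under LED light. The groups were far apart, and the log2 difference was 1.61 ± 0.51 (95% interval 0.53 to 2.70), yet the adjusted p was 0.797. The level 200 libraries of each source spread from 9.06 to 103 CPM, and these enter the pooled spread; a fit of the 9 compared libraries gave an adjusted p of 0.000119, and 0.0814 when the in-between libraries were also left out. RT1-Da, a class II chain, was at 12.3, 8.59 and 9.41 CPM against 2.19 to 4.42 CPM (1.62 ± 0.60, adjusted p = 0.871), and RT1 genes can share reads with near-identical copies. Of the whole antigen presentation list, 27 members tested, 3 were higher and 3 lower at an unadjusted p under 0.05, beside 2.74 and 2.34% of all genes tested. The median of the list was -0.12: Tap2, a peptide transporter of class I, was at 17.2, 20.3 and 16.3 CPM against 20.8 to 29.6 CPM.

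**Figure D3:**
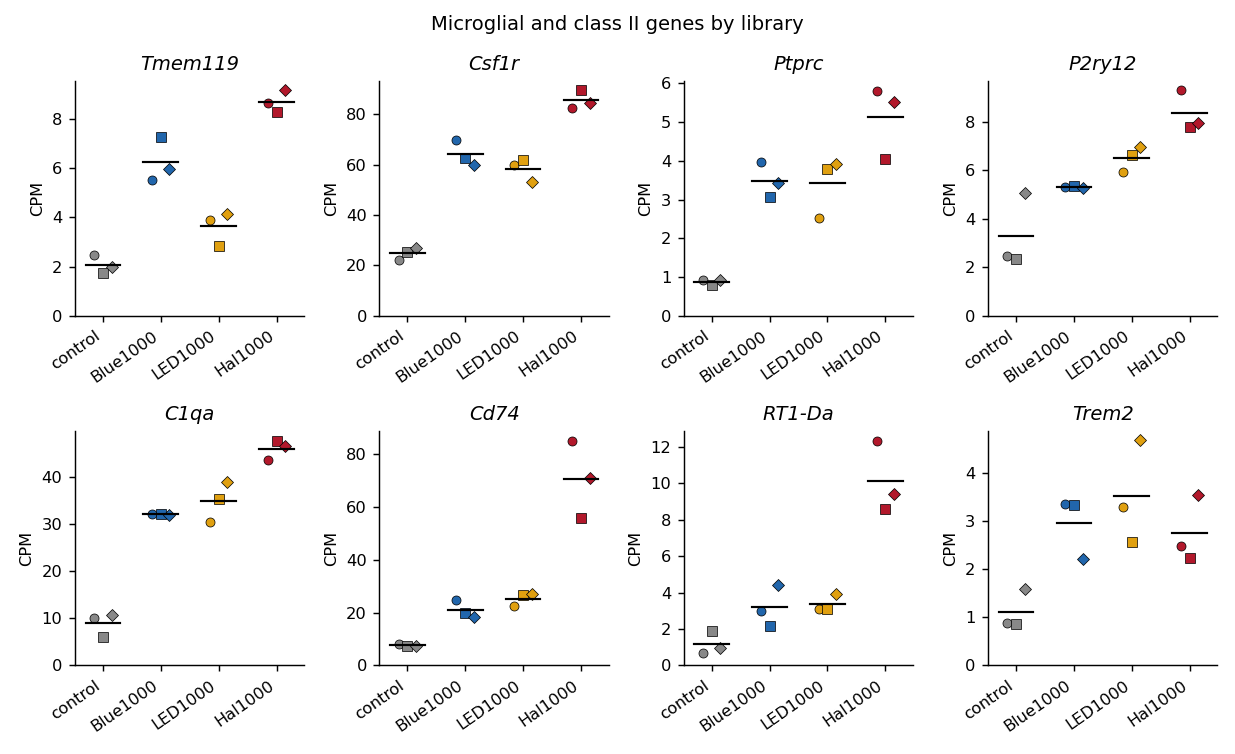
Level in CPM (y axis) of 7 microglial or class II genes and of Trem2 for the controls and the 3 level 1000 groups (x axis); points are libraries and bars are group means. The halogen libraries lie above the blue and LED libraries for each gene except Trem2, where the groups overlap. Apart from Cd74, the genes were chosen after their values were seen. In the whole lists, 8 of 29 microglial and 4 of 27 antigen presentation members were higher without overlap.

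Interferon response genes leaned the other way. Of 39 tested members, 4 had a positive log2 difference, 1 had an unadjusted p under 0.05 (Ifi27, lower), and the median was -0.30. The median was -0.02 against blue and -0.60 against LED light, so the lower values were found against LED light. Ifi27 was at 23.3 ± 1.16 CPM under halogen, 26 ± 3.91 CPM under blue and 53.1 ± 10.1 CPM under LED light (SD, n = 3). Complement genes were centred near 0, with a median of -0.01 over 24 members, and the reactive gliosis list had a median of -0.02 over 30, with Gfap, the intermediate filament of reactive glia, at 608, 447 and 526 CPM under halogen against 598 to 868 CPM (-0.41 ± 0.23).

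Synaptic, bipolar and ganglion cell genes were measured precisely. Synaptic genes had a median log2 difference of 0.11, with 7 of 28 members higher at an unadjusted p under 0.05 and 0 lower, beside 2.74 and 2.34% of all genes tested, and all 28 intervals lay within 2-fold. The synaptic median was 0.02 against blue and 0.18 against LED light, so the higher values were found mostly against LED light. The median of the combined comparison was 0.0509 without LED1000 replicate 3 and 0.0513 when libraries were scaled to the bipolar cell list. Syn1, the vesicle protein synapsin, was at 405 ± 10.2 CPM under halogen, 350 ± 17.9 CPM under blue and 348 ± 23 CPM under LED light (0.21 ± 0.06, adjusted p = 0.609), and Syt1, the calcium sensor of vesicle release, differed by 0.18 ± 0.05. Bipolar cell genes had a median of 0.11 and ganglion cell genes one of 0.04, with every interval within 2-fold (21 and 22 members). Against blue these medians were -0.01 and 0.08, and against LED light 0.21 and -0.0033. Rbfox3, the neuronal splicing factor NeuN, was at 58.1 ± 1.39 CPM under halogen against 50 ± 1.57 and 46.5 ± 1.89 CPM (0.27 ± 0.06, adjusted p = 0.447). Amacrine and horizontal cell genes were more spread out, from -1.33 for Npy to 0.92 for Vip, with a median of 0.08, 20 of 25 intervals within 2-fold, and 2 members higher and 3 lower at an unadjusted p under 0.05. The bipolar scaling moved the median of all genes from 0.01 to -0.06 and that of the ganglion cell list to -0.03.

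Clock genes were among those with narrow intervals. Per1, a light-induced component of the circadian clock, was at 82.5, 79.7 and 82.2 CPM under halogen against 52.7 to 69.3 CPM in the other libraries (0.36 ± 0.10, adjusted p = 0.646). The clock repressor Nr1d1 was at 500, 550 and 511 CPM against 412 to 499 CPM and the output factor Hlf at 185, 193 and 199 CPM against 158 to 180 CPM, so these 3 genes did not overlap. Over the list of 24 tested genes, 4 were higher and 0 lower at an unadjusted p under 0.05, beside 2.74 and 2.34% of all genes tested. Without overlap between the groups, 4 were higher and 0 lower, beside 2.64 and 2.41% of all genes tested. The median of the list was 0.05, which turned to -0.02 when scaled to the bipolar list. Among immediate early genes, Junb and Zfp36 had higher means under halogen (27.4 ± 8.51 and 14.7 ± 5.5 CPM) with a wide spread, and the median of 33 members was 0.08.

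**Figure D4:**
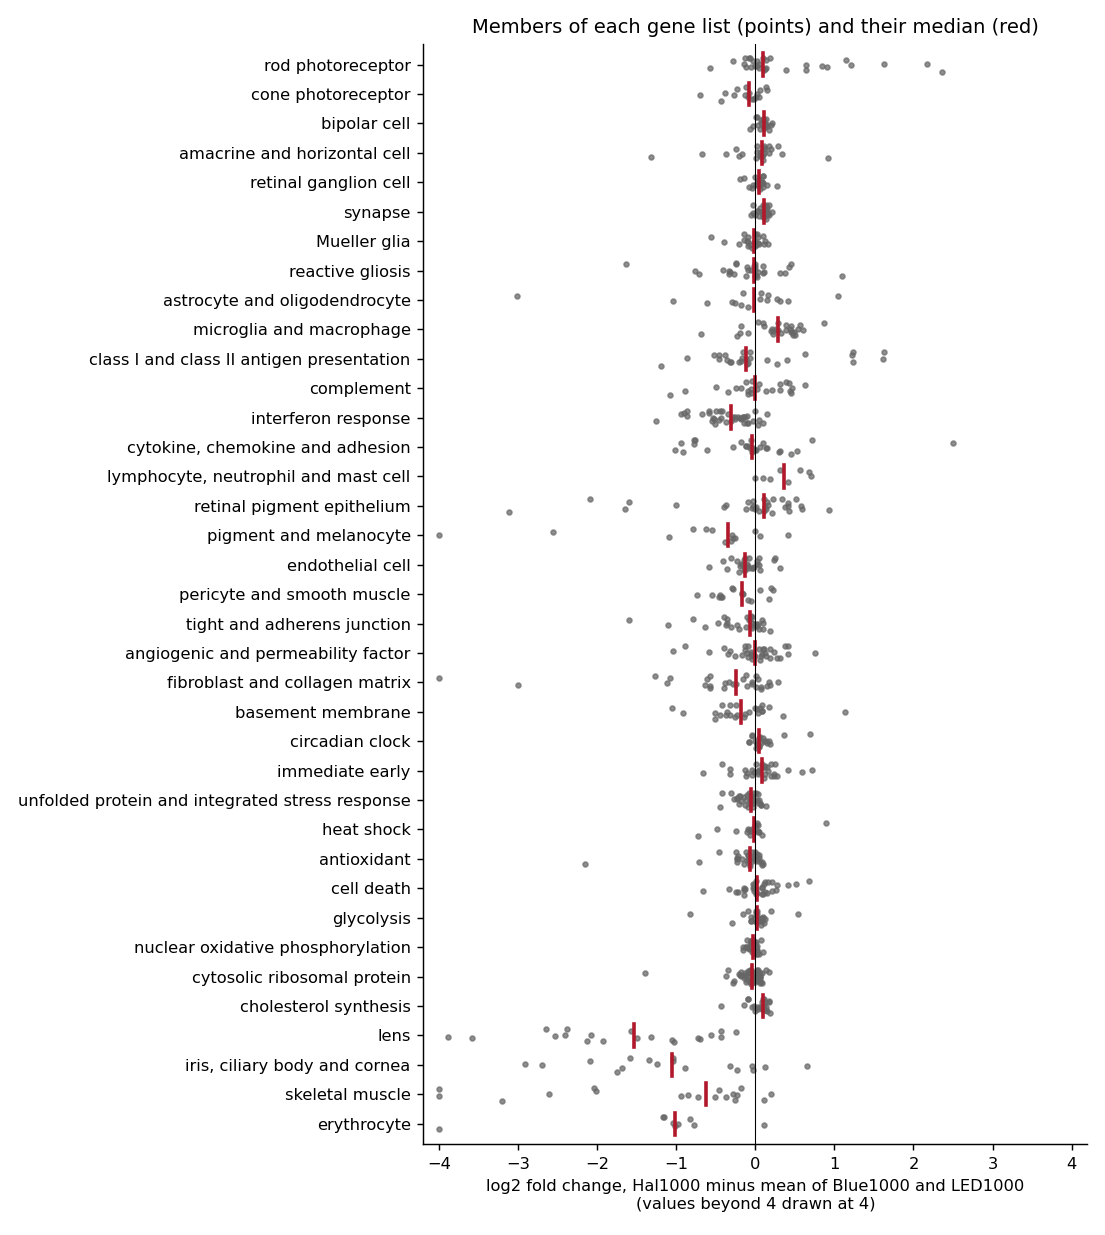
Log2 fold change of halogen against the mean of blue and LED light at level 1000 (x axis) for the tested members of 37 gene lists (y axis); points are genes and red bars are medians. The synapse, bipolar and ganglion cell lists are narrow with medians of 0.04 to 0.11, the median of the microglial list is at 0.29, and the medians of the lens, iris, muscle and erythrocyte lists lie between -1.54 and -0.62.

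The title of the series names the barrier between blood and retina, which vessel endothelium and pigment epithelium form together. edgeR called 0 of 31 endothelial genes, 1 had an unadjusted p under 0.05, the median was -0.13, and 28 intervals lay within 2-fold. Vwf, the von Willebrand factor of endothelial cells, was at 101, 80.7 and 94.7 CPM under halogen, 152, 104 and 137 CPM under blue and 164, 151 and 124 CPM under LED light (-0.59 ± 0.22, adjusted p = 0.871). Cldn5, the main claudin of retinal vessels, was at 28.3, 20.4 and 25.5 CPM against 20.2 to 41.4 CPM (-0.24 ± 0.17; 95% interval -0.59 to 0.12). Of the endothelial genes named, Vwf alone had halogen libraries below all others.

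Junction genes had a median of -0.06 over 31 members, with 1 higher and 2 lower at an unadjusted p under 0.05, beside 2.74 and 2.34% of all genes tested. Tjp1, the scaffold ZO-1, was at 214, 200 and 213 CPM against 168 to 231 CPM (-0.05 ± 0.09; 95% interval -0.23 to 0.13), which bounds a change well below 2-fold. The interval of Ocln, occludin, was wider, from -1.08 to 0.37. Cldn19, a claudin of the pigment epithelium, was at 3.88, 3.2 and 5.06 CPM under halogen, 10.6, 6.24 and 9.95 CPM under blue and 16.4, 17.7 and 16.3 CPM under LED light (-1.59 ± 0.73, adjusted p = 0.965). Its controls ranged from 4.21 to 21 CPM, wider than the groups compared. Vegfa, the permeability and growth factor, was at 329, 328 and 331 CPM against 306 to 389 CPM (-0.11 ± 0.08; 95% interval -0.28 to 0.05).

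Pigment epithelial genes, whose presence in a retinal sample depends also on the dissection, were at like shares in the 3 groups: 0.205% ± 0.07 of the counts under halogen, 0.204% ± 0.0381 under blue and 0.203% ± 0.011 under LED light. The median log2 difference over 32 members was 0.11, and 8 intervals lay within 2-fold. Aqp1, Otx1, Cldn19 and Enpp2 had halogen libraries below all others. These are 4 of the 32 members, beside 2.41% of all genes tested, and 0 members had halogen libraries above all others. Otx1 was at 1.72, 2.18 and 2.02 CPM against 5.7 to 12.3 CPM. Rpe65, the visual cycle isomerase and the defining gene of this epithelium, was at 28.7, 108 and 63.9 CPM under halogen against 31 to 60.3 CPM, so its halogen libraries differed from each other more than the groups did.

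Lists of neighbouring tissues had medians below 0, with uneven libraries. Lens genes took 0.226, 0.00187 and 0.12% of the counts in Blue1000 replicates 1, 2 and 3, against 0.00325 to 0.0193% in the halogen and 0.00516 to 0.00572% in the LED libraries, and their median log2 difference was -1.54 over 20 members, of which edgeR called 0 and 0 had an unadjusted p under 0.05. Blue1000 replicate 2 lay below every halogen library. Skeletal muscle genes had a median of -0.62 over 18 members, with 0 higher and 5 lower at an unadjusted p under 0.05, beside 2.74 and 2.34% of all genes tested. Their share of the counts was 0.0155 to 0.0162% in the halogen, 0.0179 to 0.0202% in the blue and 0.0164 to 0.0193% in the LED libraries. Iris, ciliary body and cornea genes had a median of -1.05 over 17 members, which was -0.93 against blue and 0.06 against LED light. Their shares of the counts overlapped in the 3 groups. Erythrocyte genes took 0.00782% ± 0.000667 of the counts under halogen, 0.0181% ± 0.00621 under blue and 0.0152% ± 0.0026 under LED light, and 6 of 9 members were lower without overlap, beside 2.41% of all genes tested; globin and crystallin genes can share reads with near-identical copies. Lum, a corneal and connective tissue proteoglycan, and Hba-a3, a globin, had 0 reads in all 3 halogen libraries. The part of these tissues in the results above was not tested.

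Residual rod transcripts varied within the halogen group. Gnat1, the rod transducin, was at 31.5, 30.4 and 3.89 CPM under halogen and at 1.08 to 10.7 CPM in the other level 1000 libraries, against 10433 to 13547 CPM in the controls (log2 difference 2.17 ± 0.79, adjusted p = 0.871). The in-between library Hal1000 replicate 3 was far below its mates for this gene. Nrl, the factor that specifies rods, was at 2.8, 2.18 and 0.313 CPM against 0.115 to 1.74 CPM. The rod list had a median of 0.10 over 30 members with 1 member at an unadjusted p under 0.05. Cone genes had a median of -0.08 over 17 members, of which 0 had an unadjusted p under 0.05. That median was 0.09 against blue and -0.24 against LED light. Cone genes took 0.142 to 0.148% of the counts in the halogen, 0.129 to 0.167% in the blue and 0.165 to 0.17% in the LED libraries. Arr3, the cone arrestin, held 1592, 1291 and 1562 reads under halogen, 1789, 844 and 1310 under blue and 2903, 2895 and 2934 under LED light.

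The source effect depended on the level. At level 200, where rod genes took 3.55% ± 0.841 of the counts under halogen, 0.145% ± 0.00987 under blue and 0.219% ± 0.0927 under LED light, the same contrast called 6177 genes (38.6%) in edgeR's quasi-likelihood test, 3252 higher (20.3%) and 2925 lower (18.3%), and 5403 without the in-between libraries. The difference between the contrasts at the 2 levels was called for 3974 genes (24.8%), 1856 in the positive (11.6%) and 2118 in the negative direction (13.2%). Without the in-between libraries it was called for 2478 genes. The split by direction depended on the scaling. Scaled to the bipolar cell list, 255 of 4361 calls were positive, and with limma-trend on log2(FPKM + 1) 2792 of 4411 were. Since CPM is relative to all counts, the rod share moves the other genes of the level 200 groups as well, and its part in these calls was not tested.

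Photoreceptor genes led the negative side of that interaction. Rom1, a structural protein of the outer segment discs, was at 104, 102 and 100 CPM under halogen at level 1000, within the 94.5 to 122 CPM of the other sources, but at 901, 1148 and 1378 CPM under halogen at level 200 against 94.5 to 159 CPM. Its interaction was -3.36 ± 0.18 (adjusted p = 1.37e-09), and Elovl4, which makes very long fatty acids of photoreceptor membranes, gave -2.32 ± 0.13 with the same adjusted p. Of 30 rod genes 29 were called in the negative direction, with a median interaction of -5.09, so the halogen surplus of rod transcripts at level 200 was not found at level 1000. Pigment epithelial genes took the positive side, with 18 of 32 called and a median of 2.16; Rpe65 gave 4.18 ± 0.72 (adjusted p = 0.000565), having been at 1.24, 5.33 and 5.43 CPM under halogen at level 200 against 26.5 to 71.1 CPM under the other sources.

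**Figure D5:**
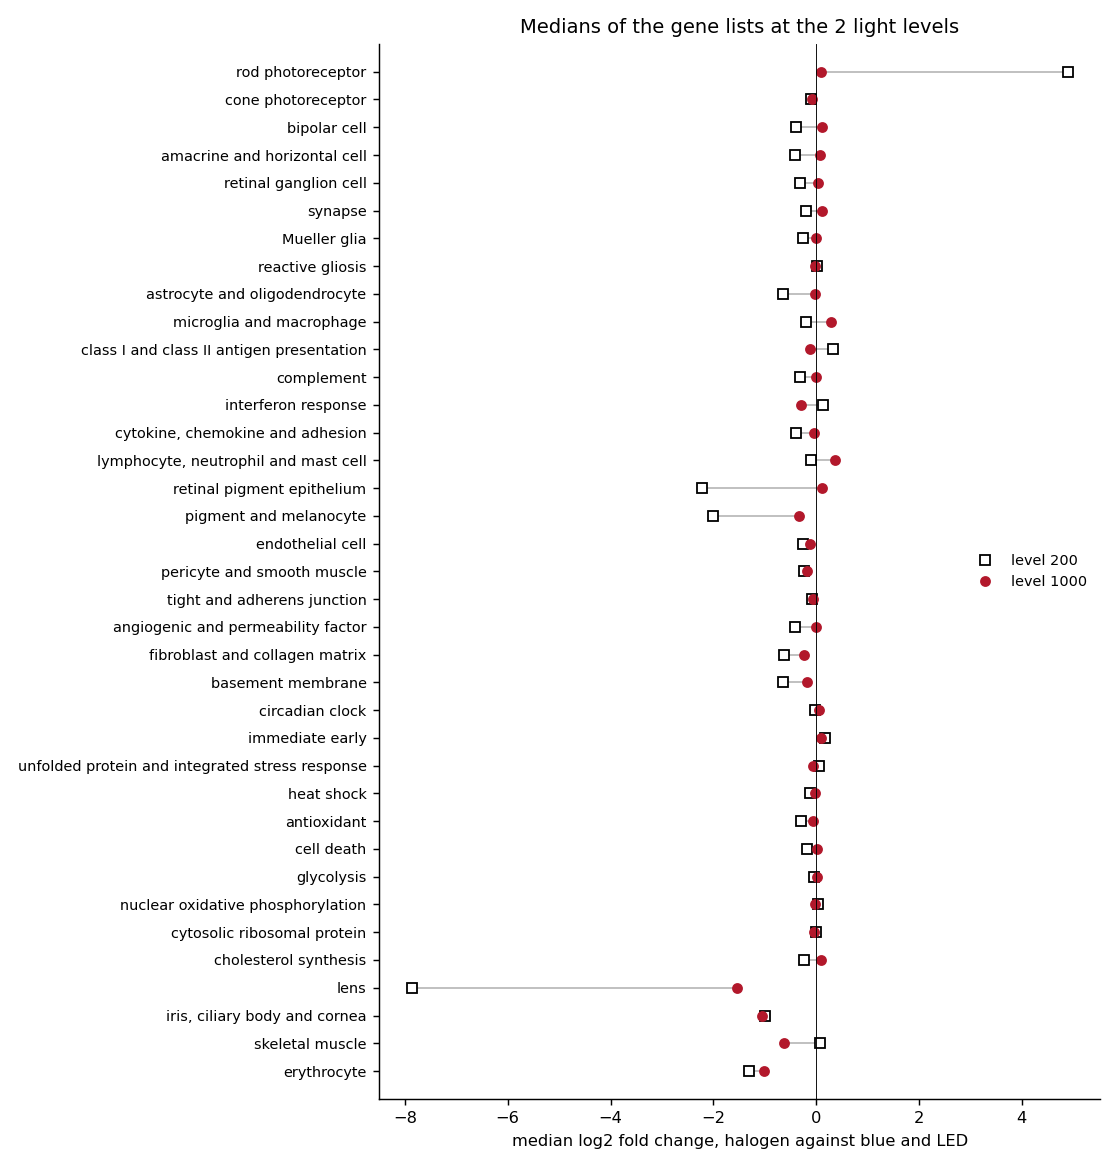
Median log2 fold change of 37 gene lists (y axis) for halogen against blue and LED light (x axis), at level 200 (open squares) and level 1000 (red circles). The rod list is at 4.89 at level 200 and at 0.10 at level 1000, and the pigment epithelium list at -2.22 and 0.11.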

How the data were processed

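Retinal RNA was sequenced from 21 libraries in 7 groups of 3, and per the labels' protocols the VAHTS Universal V6 kit was used. The authors deposited whole-number counts per gene and, separately, FPKM values for the same genes. Per the submitters' processing notes R 3.2.0 was used. Not given in the sources used here are the aligner, the counter, the strand setting and the build. The counts were scaled by TMM and tested with edgeR 4.0.16 (quasi-likelihood, robust, R 4.3.3), with 1 mean per group over all 21 libraries. Genes needed about 10 counts in 3 libraries and 15 in total. Tests were two-sided, adjusted by Benjamini-Hochberg within each comparison at 0.05, and intervals are 95%. The interaction compared the halogen contrast at level 1000 with that at level 200. CPM are TMM-scaled, and floors of 3 counts cover counting error only. Log2 fold changes are given ± SE.

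Since fewer than 10 genes were called, the rule for named genes took the 10 with the smallest p. It also took the 5 leading interaction genes with a full symbol and a fixed set of barrier, photoreceptor, pigment epithelial, glial and immune genes. Other genes are examples from the lists chosen after their values were seen. The comparison, its members and the 37 gene lists were chosen with earlier results of these data known, and the thyroid hormone, neuropeptide and dopamine lists and the promoter motif after values were seen. Alternatives were DESeq2 1.42.0 and its size factors, no filter, only the compared groups, a replicate block, limma 3.58.1 (trend on log2(FPKM + 1) and log2(FPKM + 0.1), and voom with quality weights), scaling to bipolar genes, and leaving out each library or the in-between libraries; the fit of the compared groups without the in-between libraries was added after seeing the data. Only the edgeR fit of the combined comparison was run on simulated counts, in a single run whose outcome is not given here. Promoters came from RefSeq (GRCr8).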

Additional observations from a re-analysis of the deposited data

Results flagged for a closer look

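For 18 of the genes named, the difference between halogen and the other sources was not the same at level 1000 and level 200, by edgeR's interaction test with Benjamini-Hochberg adjustment over all genes. Over all genes tested, 24.8% were called. Rom1, Elovl4, Gnb1, Bicdl1 and Osbp2 were named for their small p in this same test. The genes with the smallest p at level 1000 were chosen on values that enter it, so the count is not an independent result. In the rod genes the interaction was negative on the log2 scale: -6.70 for Gnat1, -5.95 for Nrl and -3.36 for Rom1. It was -2.32 for Elovl4, -2.80 for Gnb1, -2.38 for Bicdl1 and -2.11 for Osbp2, the other leading genes of the test. In the pigment epithelium it was 4.18 for Rpe65 and 6.40 for Hnf4a. Among the genes with the smallest p at level 1000 it was 4.39 for RGD1563400, whose fitted value depends on the prior count, 1.23 for Dio2, 1.15 for Cyp2j10, 0.67 for Vgf, 0.89 for Cxcl14, -1.13 for Ccdc30, 1.07 for Pip5kl1, 2.65 for Slc18a2 and 1.63 for Vip. The largest adjusted p among the 18 was 0.0134, for Nrl. Groups of 3 are too small for a search for single outlying libraries.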

How the results depend on the processing

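In the combined comparison, 2 genes were called. DESeq2 called 29, the compared groups alone 152, voom with quality weights 591, the replicate block 1, and limma-trend on FPKM with pseudocounts of 1 and 0.1 called 0 each (869 and 821 genes at an unadjusted p under 0.05); 1 call exceeded 2-fold, and the fits without single libraries called 1 to 2. Against blue (5 calls), DESeq2 called 30, the compared groups alone 792, voom 1078, the bipolar scaling 1, the compared groups without the in-between libraries 10, 3 exceeded 2-fold, and the fits without single libraries called 2 to 8. Against LED light (4 calls) the counts were 61 with DESeq2, 222 with the compared groups alone, 2100 with voom, 13 with the compared groups without the in-between libraries, and 1 to 2 without single libraries. Blue against LED light (42 calls) gave 760 with DESeq2, 176 with the compared groups alone, 4889 with voom, 91 and 80 on FPKM with these pseudocounts, 2565 with the bipolar scaling (78 higher, against 13 of the 42), 20 with the replicate block, 8 over 2-fold, 0 with the compared groups without the in-between libraries (1047 at an unadjusted p under 0.05), and 2 to 1364 without single libraries. Leaving out the 3 in-between libraries gave 0 edgeR calls in these 4 comparisons, with 397, 455, 839 and 2030 genes at an unadjusted p under 0.05. The interaction (3974 calls) gave 5997 with voom, 2478 without the in-between libraries, 2363 when the compared groups were also fitted alone, 949 over 2-fold, and 2907 to 4325 without single libraries. Of the 3974 calls 1856 were positive, against 255 of 4361 with the bipolar scaling and 2792 of 4411 on log2(FPKM + 1). The level 200 contrast (6177 calls, 3252 higher) gave 1082 over 2-fold, 4171 to 6234 without single libraries, and 5718 with the bipolar scaling, 5068 of them higher. The cause of these shifts was not tested.

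Signs turned for values near 0. Glul (-0.0010) became 0.0052 with DESeq2 and with its size factors, 0.00070 with the compared groups alone, 3.7e-05 with the replicate block, 0.00074 with the compared groups without the in-between libraries, and ran from -0.064 to 0.061 without single libraries (0.030 without Blue1000 replicate 2, 0.0094 without LED1000 replicate 2). Gnat2 (-0.05) ran from -0.082 to 0.0030 without single libraries.

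Deviations from the group means correlated by -0.0627 to 0.183 between same-numbered libraries of different level 1000 groups. Between differently numbered libraries they correlated by -0.183 to 0.162. Of 9 libraries, 4 correlated best with their own number in both other groups. Since these ranges overlap and each group has 3 libraries, whether the numbers pair the samples was not settled. With the replicate block the combined comparison had 1 call, RGD1563400, having lost Dio2, and the interaction 3655. Precision was limited by 3 libraries per group and, for rare genes, by counts.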
